A study of Mus musculus with 12 samples.

Results

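The second day of differentiation was followed in C2C12 cells given the solvent DMSO, by setting the 2 arrays of cells held for 48 h in differentiation medium against the 2 arrays of cells held there for 24 h. These 4 arrays, chosen by their sample labels alone, were 4 of the 12 arrays of the series. C2C12 is a mouse myoblast line that grows in rich serum and forms muscle fibres in a dish when serum is withdrawn. The series asked what embelin, a plant benzoquinone used here to inhibit PCAF, a histone acetyltransferase encoded by Kat2b, does to this process. Its 6 groups of 2 arrays were 10 uM embelin in growth medium and at 24 h and 48 h in differentiation medium, and DMSO at the same 3 points. Growth medium was DMEM with 20% fetal bovine serum, and differentiation medium was DMEM with 2% horse serum. All groups shared the one cell line, the labels name no transgene or deletion, and for the growth medium groups the labels disagree on the exposure time, so no time is given for them here. The labels do not say whether the 2 replicates in a group were grown as separate cultures, and the p-values hold only for the spread between these arrays, which may be technical.

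Under the myogenic factors MyoD and myogenin, myoblasts that lose serum leave the cell cycle, fuse into multinucleate myotubes and assemble sarcomeres. Sarcomeres are the repeating units in which myosin pulls on actin. Transcription factors and cell cycle inhibitors are known to come on early in this programme, and contractile, calcium-handling and energy genes of the mature fibre later. A part of the culture stays single and undifferentiated, as so-called reserve cells. Whole cultures were measured, so fewer cells of a type and less RNA per cell cannot be told apart.

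Each array reported 45281 bead probes, of which 16314 and 15534 were detected at a detection p-value under 0.01 at 48 h and 15510 and 15065 at 24 h. After background correction and quantile normalization to log2 values, 11452 genes, each read by its brightest probe, were tested with limma across all 12 arrays. Myoblast and myotube markers were all detected, 8 of 8 on all 4 arrays, with a summed signal of 43181.4 to 48280.2 at 48 h against 27496.9 to 29297.3 at 24 h. Summed signals here are not normalized, and bright genes weigh most in them. Gene by gene, 3 of these 8 markers were called higher at 48 h (37.5% beside 15.2% of all genes) and 0 lower, with a median log2 change of 0.41. Of the fibroblast markers, Pdgfra, Dcn and Ly6a of 7 were detected on all 4 arrays and Lum, Thy1 and Col15a1 on none, and the summed signal was 1684.5 to 2165.3 at 48 h against 4330.4 to 4400 at 24 h. None of the 7 endothelial markers was detected on any of the 4 arrays, nor were 7 of 8 adipocyte and 6 of 8 macrophage and leukocyte markers. Smooth muscle markers summed to 33883.3 to 34586.1 at 48 h and 35612.2 to 39765.9 at 24 h, with Myh11 and Cnn1 undetected.

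Outside these 4 arrays, replicate 2 of embelin in growth medium stood apart from its group. It differed from replicate 1 by more than 1 on the log2 scale in 161 genes, while the replicates differed that much in 47 genes at 48 h and in 25 genes at 24 h in DMSO cells. Muscle and matrix genes were higher on it: Ckm had 7.41 against 4.98 on replicate 1, and Cdkn1c had 10.06 against 5.90. All 12 arrays were normalized and filtered together, and this array also enters the shared estimate of spread. Named calls and list counts that change when it is left out of the fit are given both ways where a call is made or lost or a count moves by over 1.5 times. The normalization was not redone in that fit, and leaving out replicate 1 of the same group in its place gave the same adjusted p for each named gene whose call changed, since a group of 1 array adds nothing to the spread.

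At 48 h against 24 h, 3749 of the 11452 genes tested changed at an adjusted p under 0.05 (32.7%). Of these, 1738 rose (15.2%) and 2011 fell (17.6%). Arrays of the 2 times did not overlap in 7667 of the 11452 genes tested, among them all 3749 called genes. A lack of overlap therefore adds nothing to a call. Without the embelin array that stood apart, 1936 genes rose and 2209 fell. The median change over all genes was -0.02 on the log2 scale, and the median size of a called change was 0.60, so most called genes moved by less than the 1 log2 unit that 381 of the higher and 236 of the lower genes passed. With replicate 2 of either time left out the count fell to 2408 (48 h) or 2474 (24 h), and with replicate 1 left out to 2737 (48 h) or 2685 (24 h).

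Many of the genes that rose most were parts of the mature muscle fibre. Actn2, the alpha-actinin that anchors thin filaments in the Z-disc, had 13.39 and 13.56 normalized log2 signal at 48 h against 9.92 and 9.94 at 24 h, a log2 change of 3.55 (SE 0.46, limma adjusted p = 0.000307). Myh8, the perinatal myosin heavy chain, had 12.50 and 12.78 at 48 h against 9.29 and 9.03 at 24 h (log2 change 3.48, SE 0.39, limma adjusted p = 0.000132). Mybpc1, slow-type myosin binding protein C, had 8.36 and 8.63 at 48 h against 5.60 and 4.94 at 24 h (3.22, SE 0.31, limma adjusted p = 4.77e-05). In each of these 3 genes both 48 h arrays lay above both 24 h arrays by more than any gap between replicates. Tcap, the titin cap of the Z-disc, had 10.61 on both arrays at 48 h against 7.66 and 7.65 at 24 h (2.96, SE 0.18, limma adjusted p = 3.04e-06). Ckmt2, the sarcomeric creatine kinase of mitochondria, had 7.25 and 7.84 at 48 h against 4.43 and 4.45 at 24 h. It was not above background on either 24 h array, which puts the difference at at least 4.32-fold higher at 48 h (limma adjusted p = 2.87e-06). Its probe passed the detection filter only through the 48 h DMSO arrays, where it is high, so this p-value is no independent support. The bound sets the mean of the 48 h arrays against the lowest signal detected on each 24 h array or the probe's own signal, whichever is higher, and all such bounds below are made the same way. Usp18, described with the interferon genes below, was also among the largest increases, and Fam78a had 9.68 and 9.91 at 48 h against 6.93 and 6.74 at 24 h (2.96). Tceal5 (2.90), Fsd2 (2.84), Tekt5 (2.83), Smtnl2 (2.76) and Tceal6 (2.71) made up the remaining 5 of the 12 largest increases. All 12 were chosen from genes with no overlap of arrays between the 2 times.

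Many of the genes that fell most encode secreted or inflammatory products. Mgp, the matrix Gla protein that restrains calcification, had 10.14 and 9.48 at 48 h against 13.41 and 13.38 at 24 h, a log2 change of -3.58 (SE 0.78, limma adjusted p = 0.00593). Aldh3a1, an aldehyde dehydrogenase, had 7.92 and 7.12 at 48 h against 10.96 and 11.20 at 24 h (-3.57, SE 0.21, limma adjusted p = 3.04e-06). Ccl2, the monocyte chemokine, had 5.31 and 4.94 at 48 h against 8.01 and 8.11 at 24 h (-2.94, SE 0.12, limma adjusted p = 6.12e-07). In these 3 genes, as in every gene called lower, the 48 h arrays lay wholly below the 24 h arrays. Htra3, a secreted serine protease, had 6.41 and 6.05 at 48 h against 9.01 and 8.99 at 24 h (-2.77), and Serpina3g, a serpin protease inhibitor, had 6.78 and 6.82 at 48 h against 9.46 and 9.59 at 24 h (-2.73). Ch25h, which makes 25-hydroxycholesterol, changed by -2.63 and Slc1a3, a glutamate transporter, by -2.58. The remaining 5 of the 12 largest decreases were Ccl7 (-2.42), Lrrc15 (-2.29), the gelatinase Mmp9 (-2.22), the copper carrier Cp (-2.15) and the neutrophil chemokine Cxcl1 (-2.15). Mybpc1 and Tceal6 were detected on 1 of the 2 arrays of 24 h, and Ccl2 on 1 of the 2 arrays of 48 h. Of these 24 genes, Cxcl1 had the widest gap between replicates within a time, 10.18 and 8.58 at 48 h, and still lay below its 24 h values of 11.50 and 11.54.

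**Figure D1:**
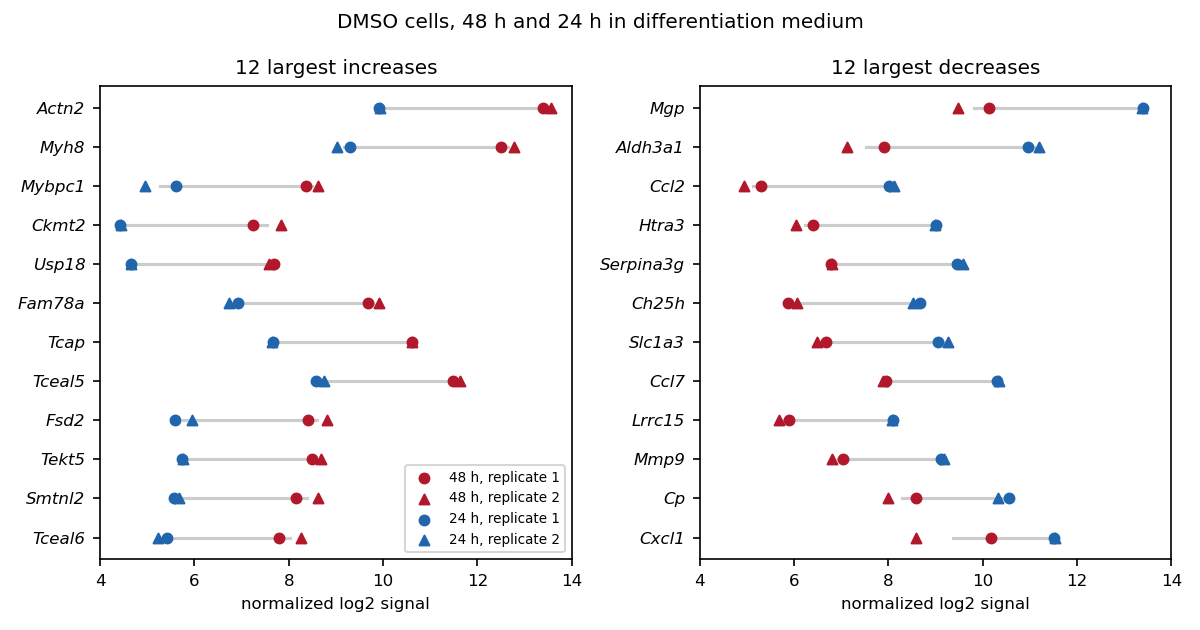
Normalized log2 signal of the 12 genes that rose most (left panel) and the 12 that fell most (right panel) in DMSO cells, with red marks for the 48 h arrays, blue marks for the 24 h arrays, circles for replicate 1 and triangles for replicate 2. Grey lines join the means of the 2 times, and Cxcl1 has the widest spread at 48 h (10.18 and 8.58). Only genes with no overlap of red and blue marks were eligible, as held for all 3749 called genes and 7667 of the 11452 tested.

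Sarcomere genes of the thick filament and the Z-disc mostly rose on the second day. Shares called higher were 80% of heavy chains, 71.4% of light chains and binding proteins and 86.4% of Z-disc and M-band genes, beside 15.2% of all genes. Among myosin heavy chains, 4 of 5 tested rose: besides Myh8 these were Myh7, the slow chain, which had 8.10 and 8.32 at 48 h against 6.17 and 5.92 at 24 h (log2 change 2.17), Myh6, at least 3.18-fold higher at 48 h, and Myh1, the fast IIx chain (1.03, limma adjusted p = 0.024). The embryonic chain Myh3 had 14.53 and 14.30 at 48 h against 13.58 and 13.61 at 24 h (0.82, limma adjusted p = 0.158). Myosin light chains and binding proteins gave 5 of 7 higher, among them Mylk2 (2.09, detected on 1 array of 24 h), the skeletal myosin light chain kinase, Myl6b (1.90), Myl2, at least 1.70-fold higher at 48 h, and Myl1 (0.65). Myl4 (0.78) and Mylpf (0.53) did not pass. Of 22 Z-disc and M-band genes, 19 rose, led after Actn2 and Tcap by Ankrd2 (2.47), a stretch-responsive ankyrin repeat protein, and Myoz2 (2.18), a calcineurin-binding Z-disc protein. Median log2 changes were 1.94 for heavy chains, 1.85 for light chains and binding proteins and 1.53 for the Z-disc and M-band list, or 1.67, 0.78 and 1.42 with undetected genes at their bound, beside -0.02 over all genes. With arrays scaled to equal 75th percentiles the first 2 were 1.20 and 1.22. All of these counts grew without the embelin array that stood apart, to 5 of 5 heavy chains, 7 of 7 light chains and binding proteins, and 21 of 22 Z-disc and M-band genes. With any 1 of the 4 arrays left out they were 3, 4 and 16 to 17, and Myh1 (limma adjusted p = 0.0598 to 0.113) and Myl1 (0.0833 to 0.107) were lost each time, and both also without the detection filter.

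The thin filament and its troponin switch changed by amounts closer to the spread. All 6 troponins tested passed: Tnnt3 changed by 1.46, Tnni2 by 1.41, Tnnc2 by 1.24, Tnni1 by 1.03, Tnnt1 by 0.93 and Tnnc1 by 0.91, with limma adjusted p between 0.0129 and 0.0423. Tnnc1, the slow troponin C, had 15.17 and 15.22 at 48 h against 14.34 and 14.23 at 24 h, without overlap, as in every called gene. The troponin calls rested on all 4 arrays being present: 1 of 6 passed without replicate 2 of 48 h (Tnni2, limma adjusted p = 0.044) and none passed without replicate 1 of 48 h or either array of 24 h (limma adjusted p from 0.0594 to 0.171 over the other 5 genes), while all 6 passed with the embelin array left out (0.00213 or less). No troponin but Tnni2 passed without the detection filter, and none with a trended prior. Among 9 other thin filament genes 5 rose (55.6% beside 15.2% of all genes) and 2 fell (22.2% beside 17.6%), with Tmod1, the tropomodulin that caps filament ends, highest at 1.72. Tpm1, a tropomyosin, had 12.89 and 12.78 at 48 h against 13.98 and 13.84 at 24 h (-1.07, limma adjusted p = 7.45e-05). The brightest Tpm3 probe fell by 0.62, whereas 3 dimmer Tpm3 probes rose by 1.57 to 1.92, so probes of this tropomyosin gene disagreed and no direction is given for the gene. The actins did not pass, with Actc1 at 0.69 (limma adjusted p = 0.352) and Acta1 at 0.54 (0.168), but both passed without the embelin array that stood apart (0.000827 and 0.00197) and with the 4 DMSO arrays alone (0.00574 and 0.0186). Counts of higher thin filament genes were 2 without replicate 2 of 24 h, 3 without replicate 2 of 48 h and 7 without the embelin array.

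Calcium handling and excitation, which couple the nerve signal to contraction, rose almost throughout: 18 of 21 genes tested were higher at 48 h (85.7% beside 15.2% of all genes), with a median log2 change of 1.27 (1.10 with 2 genes at their bound). Cav3, the muscle caveolin, had 8.81 and 8.73 at 48 h against 6.46 and 6.61 at 24 h (2.24, SE 0.19, limma adjusted p = 2.3e-05). Casq1, the fast-fibre calsequestrin that stores calcium in the sarcoplasmic reticulum, had 6.31 and 6.75 at 48 h against 4.52 and 4.52 at 24 h, at least 2.14-fold higher at 48 h. Cacna1s, the voltage sensor of the T-tubule, changed by 1.99, and Hrc, a calcium-binding protein of the reticulum, by 1.72. Of 13 neuromuscular junction genes 4 rose (30.8% beside 15.2% of all genes). They were Ncam1 (1.04, with 0.99 and -0.09 by its dimmer probes), the acetylcholine receptor delta subunit Chrnd (1.01), acetylcholinesterase Ache and the neuregulin receptor Erbb3. Ache was detected on 1 array at 48 h, Erbb3 on both, and neither at 24 h, and no fold is given for them because their bounds fell under 1. The Erbb3 call was lost without replicate 2 of 48 h or replicate 1 of 24 h (limma adjusted p up to 0.221) and under several other settings, the series matrix among them. The other receptor subunits did not pass, with Chrng at 0.89 (limma adjusted p = 0.0542), Chrna1 at 0.31 (0.109) and Chrnb1 at 0.24 (0.0925), nor did Chrne (0.698), detected on 1 array at 48 h and none at 24 h. Chrng passed under several other settings, among them equal medians (0.0331), the 4 DMSO arrays alone (0.00412) and the embelin array left out (0.000263). Chrna1 passed without that array (0.0373) and Chrnb1 at equal 75th percentiles (0.0235), and both with a trended prior (0.0418 and 0.0493). Counts with any 1 of the 4 arrays left out were 13 to 16 for calcium handling and 3 to 4 for the junction, which had 6 without the embelin array.

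Energy genes specific to muscle rose in 18 of 19 cases (94.7% beside 15.2% of all genes), with a median log2 change of 1.76, beside -0.02 over all genes. Below Ckmt2, Ampd1, the muscle AMP deaminase, had 7.14 and 7.68 at 48 h against 4.73 and 5.25 at 24 h, at least 3.95-fold higher at 48 h. Art1, a muscle ADP-ribosyltransferase, had 8.33 and 8.35 at 48 h against 6.10 and 5.88 at 24 h (2.35, limma adjusted p = 1.35e-06), and myoglobin, Mb, had 13.67 and 13.76 at 48 h against 11.79 and 11.61 at 24 h (2.02, limma adjusted p = 0.000755). Times did not overlap in any of these genes, nor in any other called gene. Ckm, the cytosolic muscle creatine kinase, had 11.86 and 11.91 at 48 h against 10.07 and 10.02 at 24 h (1.84, limma adjusted p = 0.0276), and its call was lost with any 1 of the 4 arrays left out (0.088 to 0.103) and became 4.61e-05 without the embelin array. It was lost without the detection filter and with a trended prior too. The 1 lower gene was Pdk4 (-0.50, limma adjusted p = 0.0132), an inhibitor of pyruvate dehydrogenase, whose call was lost without replicate 2 of 48 h or replicate 1 of 24 h, at up to 0.0934.

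Promoters of these muscle genes are shown because many held the E-box letters CAGCTG, a form of the short motif that myogenic factors bind. RefSeq windows from 250 bases before to 50 after a gene's start (GRCm38.p6), searched on both strands, held CAGCTG in 10 of 15 higher energy genes that have a window (66.7%), in 6 of 11 higher calcium-handling genes (54.5%) and in 11 of 30 higher sarcomere genes (36.7%). Over all 27025 genes with a window the share was 18.3%, and over the tested genes with a window it was 17.9%. The windows describe letters, not binding. The 250 bases before the start of Ckmt2 (chr13:91876886-91877135, minus strand) and of Casq1 (chr1:172219896-172220145, minus strand), both undetected at 24 h, are printed 5′ to 3′ with CAGCTG in capitals, beginning at position -107 from the start of Ckmt2 and -195 from that of Casq1.
Ckmt2: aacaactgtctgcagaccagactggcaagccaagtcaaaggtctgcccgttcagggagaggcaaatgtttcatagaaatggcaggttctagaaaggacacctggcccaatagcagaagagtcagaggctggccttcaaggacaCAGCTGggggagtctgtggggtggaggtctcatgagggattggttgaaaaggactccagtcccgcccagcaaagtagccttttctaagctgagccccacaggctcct
Casq1: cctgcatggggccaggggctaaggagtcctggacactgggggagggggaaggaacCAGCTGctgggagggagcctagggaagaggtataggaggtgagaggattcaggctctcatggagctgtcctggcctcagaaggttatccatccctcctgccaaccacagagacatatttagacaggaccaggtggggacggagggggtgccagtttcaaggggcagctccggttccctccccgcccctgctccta

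Myogenic transcription factors did not move as one. Of 16 tested, 3 rose (18.8% beside 15.2% of all genes) and 4 fell (25% beside 17.6%), both near the shares of all genes, and the median was -0.00. Mef2c, a late factor that acts with MyoD, had 10.85 and 11.25 at 48 h against 9.08 and 9.17 at 24 h (log2 change 1.93, SE 0.21, limma adjusted p = 0.00011). Myf6, the myogenic factor of mature fibres, had 6.13 and 6.25 at 48 h against 4.67 and 4.68 at 24 h, at least 1.69-fold higher at 48 h, and Tead4 changed by 1.29. Myod1, the factor that commits cells to muscle, had 10.55 and 10.60 at 48 h against 10.63 and 10.57 at 24 h, with overlapping times (-0.03, limma adjusted p = 0.922). Myog, myogenin, had 12.46 and 12.34 at 48 h against 12.32 and 12.11 at 24 h (0.19, limma adjusted p = 0.794). Lower genes included Tcf3 (-0.93), which encodes the E-protein partners of MyoD, Eya1 (-0.79, detected on 1 array of 48 h) and Pitx3 (-0.33), the last lost with any 1 of the 4 arrays left out (limma adjusted p from 0.0831 to 0.167). Myf5 and myostatin (Mstn) were not detected on any of the 4 arrays. Kat2b, the gene of the acetyltransferase that the series set out to inhibit, had 5.89 and 6.08 at 48 h against 6.31 and 6.29 at 24 h (-0.32, limma adjusted p = 0.10).

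Fusion genes were split and the dystrophin complex rose. Of 17 fusion and adhesion genes 29.4% rose and 23.5% fell, beside 15.2% and 17.6% of all genes. Among 17 fusion and adhesion genes, Cav3 (2.24), Tmem182 (1.95), the membrane repair protein Dysf (1.60), the junction protein Jam2 (0.87) and the tetraspanin Cd81 (0.36) rose, and the integrin Itga3 (-1.46), Kirrel (-0.77), another tetraspanin, Cd9 (-0.73), and Kirrel3, detected on 1 array of 24 h and at least 1.11-fold lower at 48 h, fell. Calls were lost for Jam2 without replicate 2 of 24 h (limma adjusted p = 0.0566) and for Cd81 without either array of 24 h or replicate 1 of 48 h (up to 0.204). Mymk, myomaker, a membrane protein needed for fusion, had 11.50 and 11.62 at 48 h against 10.94 and 10.80 at 24 h (0.69, limma adjusted p = 0.257), and passed without the embelin array that stood apart (0.00119). In the dystrophin complex, which ties the cell skeleton to the basement membrane, 8 of 14 genes rose (57.1% beside 15.2% of all genes), among them the dystrobrevin Dtna (1.22, with 0.07 to 0.92 by its dimmer probes) and the syntrophin Sntb1 (1.07). That count was 5 without replicate 2 of 48 h, 6 without either array of 24 h and 7 without replicate 1 of 48 h. Among reserve cell and myogenesis inhibitor genes, 3 of 19 rose (15.8% beside 15.2% of all genes) and 6 fell, or 3 fell without replicate 2 of either time. Vcam1, an adhesion molecule, had 8.79 and 8.69 at 48 h against 10.75 and 10.67 at 24 h (-1.97, limma adjusted p = 1.35e-06), Id3, an inhibitor of MyoD and E-protein dimers, changed by -1.31, and Hey1, a Notch target, by 0.94.

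**Figure D2:**
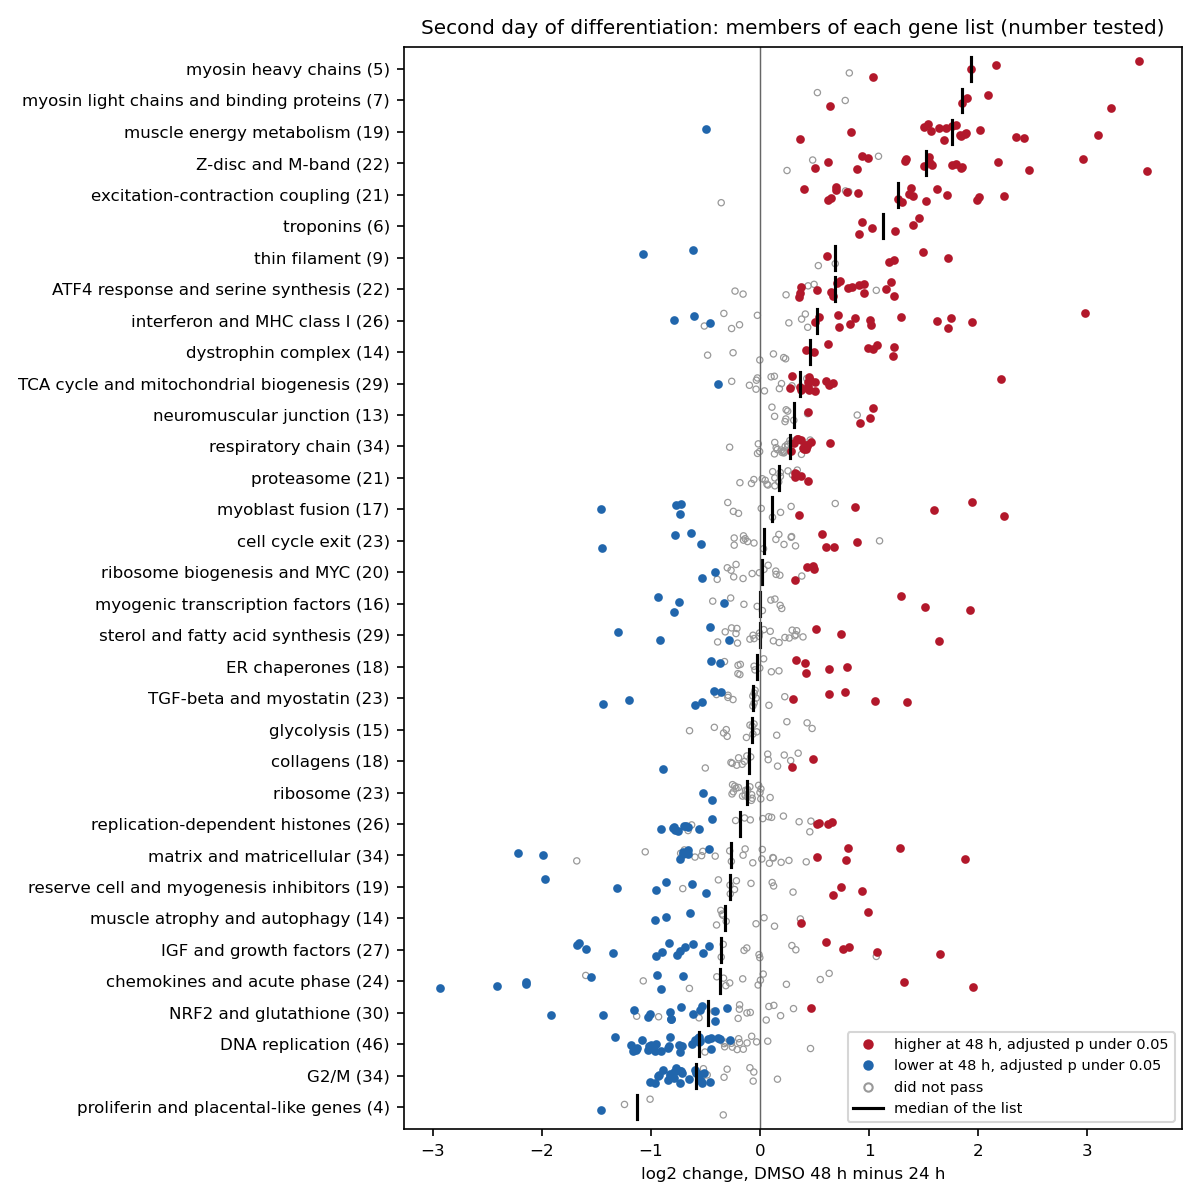
Log2 change at 48 h minus 24 h in DMSO cells of every tested member of 34 gene lists, with filled red points for genes that rose, filled blue points for genes that fell, open grey points for genes that did not pass and a black bar at each list's median. Medians run from 1.94 for myosin heavy chains to -0.59 for the G2/M genes and -1.13 for 4 proliferin and placental-like genes.

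Cell cycle genes fell further from 24 h to 48 h. In DNA replication, 31 of 46 genes tested were lower (67.4% beside 17.6% of all genes), with a median log2 change of -0.56. Tk1, thymidine kinase, had 7.88 and 8.13 at 48 h against 9.18 and 9.49 at 24 h (-1.33, limma adjusted p = 6.92e-05), and the helicase subunit Mcm3 (-1.18), the licensing factor Cdc6 (-1.16) and the chromatin assembly subunit Chaf1b (-1.14) fell by similar amounts. In G2/M, 24 of 34 genes were lower (70.6% beside 17.6% of all genes), with a median of -0.59: the chromosomal passenger genes Birc5 (-1.01) and Aurkb (-0.96), the transcription factor Foxm1 (-0.94) and the spindle motor Kif11 (-0.92) led. Kif11 had 6.42 and 6.62 at 48 h against 7.39 and 7.50 at 24 h. Counts with any 1 of the 4 arrays left out ran from 21 to 24 for replication and from 18 to 23 for G2/M. Of the 26 replication-dependent histone genes 4 rose (15.4% beside 15.2% of all genes) and 10 fell (38.5% beside 17.6%), with the H2A gene H2ac15 lowest (-0.91). Copies of these genes are nearly identical, and their probes may read one another. Without replicate 1 of 48 h 0 histone genes were higher, without either array of 24 h 1 was, and 7 were without the embelin array, while 5 to 7 were lower with 1 of the 4 arrays left out. Ccnd1, cyclin D1, had 9.80 and 9.77 at 48 h against 11.04 and 11.43 at 24 h (-1.45, limma adjusted p = 3.57e-05). Cdkn1a, the inhibitor p21, had 14.13 and 14.16 at 48 h against 13.30 and 13.21 at 24 h (0.89, limma adjusted p = 0.000307). Cdkn1c, the inhibitor p57, had 14.25 and 14.38 at 48 h against 13.22 and 13.21 at 24 h (1.10, SE 0.95, limma adjusted p = 0.41), and with the embelin array left out its adjusted p was 0.016.

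The CHR, a short element of G2/M promoters known to be bound by cell cycle repressor complexes, was searched by the letters TTTGAA in the same windows. It was in 15 of the 20 lower G2/M genes that have a window (75%), in 3 of 24 lower replication genes (12.5%), in 13.8% of tested genes and in 20.2% of all genes. Kif11 (chr19:37376132-37376381, plus strand) is shown as one of the 4 G2/M genes that fell most, its match, from position -19 on the opposite strand, in capitals.
Kif11: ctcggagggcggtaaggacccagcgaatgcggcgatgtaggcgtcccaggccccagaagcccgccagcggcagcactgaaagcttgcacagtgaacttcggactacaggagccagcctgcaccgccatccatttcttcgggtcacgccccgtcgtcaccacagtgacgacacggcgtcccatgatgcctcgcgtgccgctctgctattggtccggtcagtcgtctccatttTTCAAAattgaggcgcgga

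Interferon and MHC class I genes gave 14 of 26 higher (53.8% beside 15.2% of all genes) and 3 lower (11.5% beside 17.6%), with a median log2 change of 0.52 (0.47 with 3 genes at their bound). Usp18, the protease that removes ISG15 from proteins, had 7.69 and 7.59 at 48 h against 4.66 and 4.66 at 24 h, at least 4.62-fold higher at 48 h (limma adjusted p = 5.59e-07). Its probe passed the detection filter only through the 48 h DMSO arrays, so this p-value is no independent support. Ifit3, an interferon-induced antiviral protein, had 9.50 and 9.55 at 48 h against 7.58 and 7.59 at 24 h (1.94, SE 0.14, limma adjusted p = 8.69e-06). Mx2 was at least 2.19-fold higher at 48 h, and Bst2, tetherin, had 8.56 and 7.96 at 48 h against 6.55 and 6.52 at 24 h (1.72). All 4 genes had every 48 h array above every 24 h array, as did every gene called higher. Irf1 (-0.79), an interferon regulatory factor, Psmb10 (-0.60), an immunoproteasome subunit, and H2-T23 (-0.46), a non-classical class I gene, were lower, the last losing its call without replicate 2 of 48 h or either array of 24 h (limma adjusted p up to 0.290). Between 11 and 12 of the list's genes were higher with any 1 of the 4 arrays left out, and 14 without the embelin array.

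The interferon-stimulated response element was searched as GAAA, then any 2 bases (NN), then GAAA, on both strands. It was in 4 of 9 higher interferon genes that have a window (44.4%), against 3.48% of tested genes and 3.99% of all genes. Ifit3 (chr19:34583279-34583528, plus strand) and Bst2 (chr8:71537473-71537722, minus strand) are the genes with a match among the 4 that rose most. Capitals mark the matches, from positions -156 and -122 in Ifit3 and as 1 overlapping pair from -130 and -124 in Bst2.
Ifit3: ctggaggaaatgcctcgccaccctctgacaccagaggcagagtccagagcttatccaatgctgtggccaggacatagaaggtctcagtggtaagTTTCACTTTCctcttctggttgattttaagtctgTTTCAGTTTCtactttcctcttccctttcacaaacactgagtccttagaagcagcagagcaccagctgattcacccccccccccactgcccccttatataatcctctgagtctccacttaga
Bst2: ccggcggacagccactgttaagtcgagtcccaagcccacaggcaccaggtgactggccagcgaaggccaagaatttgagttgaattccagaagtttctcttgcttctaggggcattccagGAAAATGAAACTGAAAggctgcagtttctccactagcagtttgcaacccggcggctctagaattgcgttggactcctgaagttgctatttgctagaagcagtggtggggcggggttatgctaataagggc

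Chemokines and acute phase genes moved the other way, with 8 of 24 lower (33.3% beside 17.6% of all genes) and 2 higher (8.33% beside 15.2%). Besides Ccl2, Ccl7, Cp and Cxcl1, which fell by 2.15 or more, the higher pair was Ccl5 (1.96) and Cxcl10, at least 2.04-fold higher at 48 h, both chemokines that interferon is known to induce. Ccl7 had 7.94 and 7.88 at 48 h against 10.31 and 10.35 at 24 h (limma adjusted p = 7.18e-07), and its replicates lay close together. Saa3, serum amyloid A3, had 10.48 and 6.07 at 48 h against 9.79 and 9.96 at 24 h, so its 48 h arrays lay on both sides of the 24 h arrays and its change of -1.60 did not pass (limma adjusted p = 0.237). NF-kB is a factor known to drive such genes, and its binding motif was in 2 of 5 lower chemokine genes with a window (40%), against 12.1% of tested genes, but also in 3 of 9 higher interferon genes (33.3%) and 7 of 30 higher sarcomere genes (23.3%). The 250 bases before Cxcl1 (chr5:90890995-90891244, plus strand) are shown for their overlapping pair of matches, in capitals, from positions -71 and -70.
Cxcl1: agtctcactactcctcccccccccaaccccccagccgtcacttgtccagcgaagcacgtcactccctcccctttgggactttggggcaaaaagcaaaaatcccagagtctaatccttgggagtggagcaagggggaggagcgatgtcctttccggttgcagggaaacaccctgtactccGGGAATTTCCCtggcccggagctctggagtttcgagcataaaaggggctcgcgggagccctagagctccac

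Few collagens were called, and other matrix genes were called in shares near those of all genes. Among 18 collagens, 2 rose, Col5a3 (0.48) and Col18a1 (0.30), and 1 fell, Col12a1 (-0.89). These are 11.1% and 5.56%, beside 15.2% and 17.6% of all genes. Those 3 calls were each lost with some array left out, Col5a3 and Col12a1 reaching limma adjusted p values of 0.133 and 0.148 and Col18a1 0.159. Col1a1 had 12.23 and 11.93 at 48 h against 12.15 and 11.68 at 24 h, with overlapping times. In 34 other matrix genes 5 rose (14.7% beside 15.2% of all genes) and 8 fell (23.5% beside 17.6%), and 6 rose and 13 fell without the embelin array that stood apart. Lama1, a laminin chain of basement membrane, had 8.20 and 8.18 at 48 h against 6.49 and 6.11 at 24 h (1.88, limma adjusted p = 0.000541), Timp3, a protease inhibitor, changed by 1.28 and Tnc, tenascin C, by 0.81. Mmp9 had 7.04 and 6.82 at 48 h against 9.11 and 9.18 at 24 h (-2.22), the collagenase Mmp13, detected on 1 array of 48 h, changed by -1.99 and fibronectin, Fn1, by -0.74.

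Of 27 growth factor genes 13 were lower (48.1% beside 17.6% of all genes) and 5 were higher at 48 h (18.5% beside 15.2%). Irs2, a docking protein of the insulin and IGF receptors, had 5.96 and 5.87 at 48 h against 7.56 and 7.63 at 24 h (-1.68), Pdgfra, the PDGF receptor of mesenchymal cells, changed by -1.66 and Igfbp2, an IGF binding protein, by -1.60. Hbegf, an EGF receptor ligand, had 8.47 and 8.54 at 48 h against 6.85 and 6.86 at 24 h (1.65, limma adjusted p = 3.09e-06). Igf2, an autocrine growth factor of differentiating myoblasts, had 14.95 and 15.05 at 48 h against 13.90 and 13.96 at 24 h (1.07, limma adjusted p = 0.0127), and did not pass under every left-out array (0.0434 to 0.0675). In TGF-beta and myostatin signalling 5 of 23 rose (21.7% beside 15.2% of all genes), led by the activin and myostatin antagonists Fst (1.35) and Fstl3 (1.05). Another 6 fell (26.1% beside 17.6%), with Bmp4 at least 1.93-fold lower at 48 h. Counts with any 1 of the 4 arrays left out were 10 to 12 lower and 2 to 4 higher for growth factors, and 3 to 5 lower and 3 higher for TGF-beta genes.

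Mitochondrial genes rose in part, by small amounts. Shares called higher were 38.2% of respiratory chain genes and 55.2% of TCA cycle and mitochondrial biogenesis genes, beside 15.2% of all genes. Shares called lower were 0% and 3.45%, beside 17.6%. In the respiratory chain 13 of 34 genes were higher, with a median log2 change of 0.28, and the largest were complex I subunits: Ndufs4 had 12.64 and 12.70 at 48 h against 11.91 and 12.15 at 24 h (0.64, limma adjusted p = 0.00246), and Ndufv1 changed by 0.47. That count was 6 and 3 without replicate 1 or replicate 2 of 48 h, 4 and 9 without replicate 1 or replicate 2 of 24 h, 5 with arrays scaled to equal medians and 15 with arrays scaled to equal 75th percentiles. In the TCA cycle and mitochondrial biogenesis, 16 of 29 rose and 1 fell, Idh3b (-0.39), an isocitrate dehydrogenase subunit, which was lost without replicate 1 of 48 h or replicate 2 of 24 h (limma adjusted p up to 0.109). With 1 array left out these were 7 to 11 higher, the lowest without replicate 2 of 48 h, and with equal medians 10. Ppargc1a, the coactivator PGC-1 alpha that drives mitochondrial biogenesis, had 6.22 and 7.24 at 48 h against 4.45 and 4.60 at 24 h, at least 2.46-fold higher at 48 h (limma adjusted p = 0.000154). Among the DMSO groups it was detected only at 48 h, where it is high. Its p-value sets that group against background and is no independent support. General glycolysis gave 0 of 15 genes by limma, with 2 at an unadjusted p under 0.05, and 2 of 23 ribosomal protein genes were lower (8.7% beside 17.6% of all genes).

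Among stress programmes, amino acid response genes were higher and antioxidant genes lower. Of 22 ATF4 response and serine synthesis genes 16 rose (72.7% beside 15.2% of all genes), with a median log2 change of 0.69 (0.66 with 1 gene at its bound). Trib3, a pseudokinase that ATF4 is known to induce, had 10.88 and 10.73 at 48 h against 9.54 and 9.66 at 24 h (1.21, limma adjusted p = 0.000489), the stress cytokine Gdf15 changed by 1.16 and Atf3, a stress transcription factor, was at least 1.38-fold higher at 48 h. Of 30 NRF2 and glutathione genes, 15 fell (50% beside 17.6% of all genes) and 1 rose (3.33% beside 15.2%), Sod2 (0.47), with a median of -0.48 (-0.41 with 2 genes at their bound). Gstm1, a glutathione transferase, had 8.07 and 8.11 at 48 h against 9.93 and 10.08 at 24 h (-1.92, limma adjusted p = 1.78e-06), and Gsta4 had 7.85 and 8.03 at 48 h against 8.84 and 9.91 at 24 h (-1.44). With any 1 of the 4 arrays left out 11 to 14 ATF4 genes were higher and 8 to 14 NRF2 genes lower, 8 of them without replicate 2 of either time. Sterol and fatty acid genes had 3 of 29 higher (10.3% beside 15.2% of all genes), led by Dhcr7 (1.64), an enzyme of late cholesterol synthesis, and 4 lower (13.8% beside 17.6%), among them the elongase Elovl6 (-0.92). Without replicate 2 of 48 h 1 was higher, and without replicate 1 of 48 h or at equal medians 2 were lower. In atrophy and autophagy 2 of 14 genes rose (14.3% beside 15.2% of all genes) and 3 fell (21.4% beside 17.6%), shares near those of all genes. At equal medians 1 rose and 3 fell. Of the ubiquitin ligases in this list, Trim63, MuRF1, had 8.02 and 8.39 at 48 h against 7.26 and 7.16 at 24 h (0.99). Fbxo32, atrogin-1, had 7.54 and 8.06 at 48 h against 8.83 and 8.69 at 24 h (-0.96). Gabarapl1 (-0.86) and Sqstm1 (-0.64), both of autophagy, fell too.

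From growth medium to 24 h, 6600 genes had changed (57.6%), 2989 of them higher (26.1%) and 3611 lower (31.5%). The second-day step was then tested against this first-day step. Both steps share the 24 h arrays, so a value high at 24 h raises one and lowers the other, and the 2 steps are given side by side. The steps differed in 4599 genes (40.2%), 2342 with a higher second-day step (20.5%) and 2257 with a lower one (19.7%). Scaling arrays to equal medians moved the median difference over all genes to 0.29, against 0.06 here, and the split to 3011 higher and 1400 lower. Troponins were lower in the second-day step in 6 of 6 genes, with median steps of 1.13 on the second day and 3.90 on the first, and collagens in 16 of 18, with medians of -0.10 and 2.39. Myog changed by 0.19 on the second day and by 4.56 on the first (limma adjusted p of the difference 0.00197), and Myod1 by -0.03 and 2.01 (0.000437). Lower second-day steps were also called for Cdkn1c (1.10 and 7.36), Mymk (0.69 and 4.49), Myh3 (0.82 and 3.99), Igf2 (1.07 and 3.08) and Kat2b (-0.32 and 0.90), and for Ckm, which changed by 1.84 on the second day and was at least 24.8-fold higher at 24 h than in growth medium, where it was undetected. Kat2b was detected on 1 of the 2 growth medium arrays. Without either array of 24 h the calls of Cdkn1c (limma adjusted p up to 0.0727) and Ckm (up to 0.106) were lost, and that of Ckm also without replicate 2 of growth medium. No difference was called for Mef2c (1.93 and 2.79), Myh8 (3.48 and 4.51, detected on 1 of the 2 growth medium arrays), Myh1 (1.03, and at least 2.59-fold higher at 24 h than in growth medium) or Cdkn1a (0.89 and 0.83), but those of Mef2c (0.0124), Myh8 (0.00912) and Myh1 (0.0459) passed without the embelin array that stood apart. Of 19 muscle energy genes 6 had a higher and 6 a lower second-day step, with medians of 1.76 and 1.58 (1.76 and 1.09 with undetected genes at their bound), and the lower ones numbered 0 without replicate 1 of 24 h and 3 without replicate 2 of 24 h. Ckmt2, Casq1, Ampd1, Ppargc1a and Myf6 were not above background in growth medium or at 24 h, so that they have no first-day fold and only the second-day bounds given above. The fit called a higher second-day step for all 5 (limma adjusted p 6.31e-05 for Ckmt2 and 0.00279 for Ppargc1a). Among the groups in this test all 5 were detected only at 48 h, where they are high. These calls set that group against background and are no independent support.

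ATF4 genes moved in opposite directions on the 2 days. ATF4 response and serine synthesis genes had a higher second-day step in 19 of 22 cases, with medians of 0.69 on the second day and -1.04 on the first: Trib3 changed by 1.21 and -2.56, and Gdf15 by 1.16 and -3.15. Ribosome biogenesis and MYC genes had one in 15 of 20, with medians of 0.02 and -1.02. Their second-day step itself was called higher in 4 and lower in 2 (20% and 10%, beside 15.2% and 17.6% of all genes). The 5 most negative differences by their fitted values were those of Mgp (second day -3.58, first day 5.87), Dcn, Serpina3g, Htra3 and Prelp. The last 4 were undetected in growth medium, and on the first day Dcn was at least 84.1-fold, Serpina3g at least 17.3-fold, Htra3 at least 12-fold and Prelp at least 43.1-fold higher at 24 h. On the second day they were at -1.68 (Dcn), -2.73 (Serpina3g), -2.77 (Htra3) and -0.43 (Prelp). Dcn, decorin, and Prelp, both matrix proteoglycans, did not pass on the second day itself (limma adjusted p = 0.116 and 0.705). Both passed with the 4 DMSO arrays alone (0.00279 and 0.046), and without the embelin array that stood apart. Dcn also passed at equal 75th percentiles and in the series matrix (0.0416 in each). Its 2 dimmer probes were called lower, at -1.83 (0.0362) and -1.09 (0.000364). The 5 most positive were Cdsn (0.71 and -5.34), Areg (-0.00 and -5.42), Prl2c3 (-1.01 and -6.14), Gsta1, undetected at 48 h (first day -5.79), and Atp2a3 (1.30 and -3.48). Of these 5, Atp2a3, a calcium pump, rose on the second day, with 7.73 and 7.68 at 48 h against 6.56 and 6.24 at 24 h. The 24 h replicates lay apart in the other 4, as in Prl2c3 with 4.84 and 6.68 and Gsta1 with 4.32 and 6.35, and their differences in step passed with either replicate left out. Areg, Prl2c3 and Gsta1 were each detected on 1 of the 2 arrays of 24 h.

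**Figure D3:**
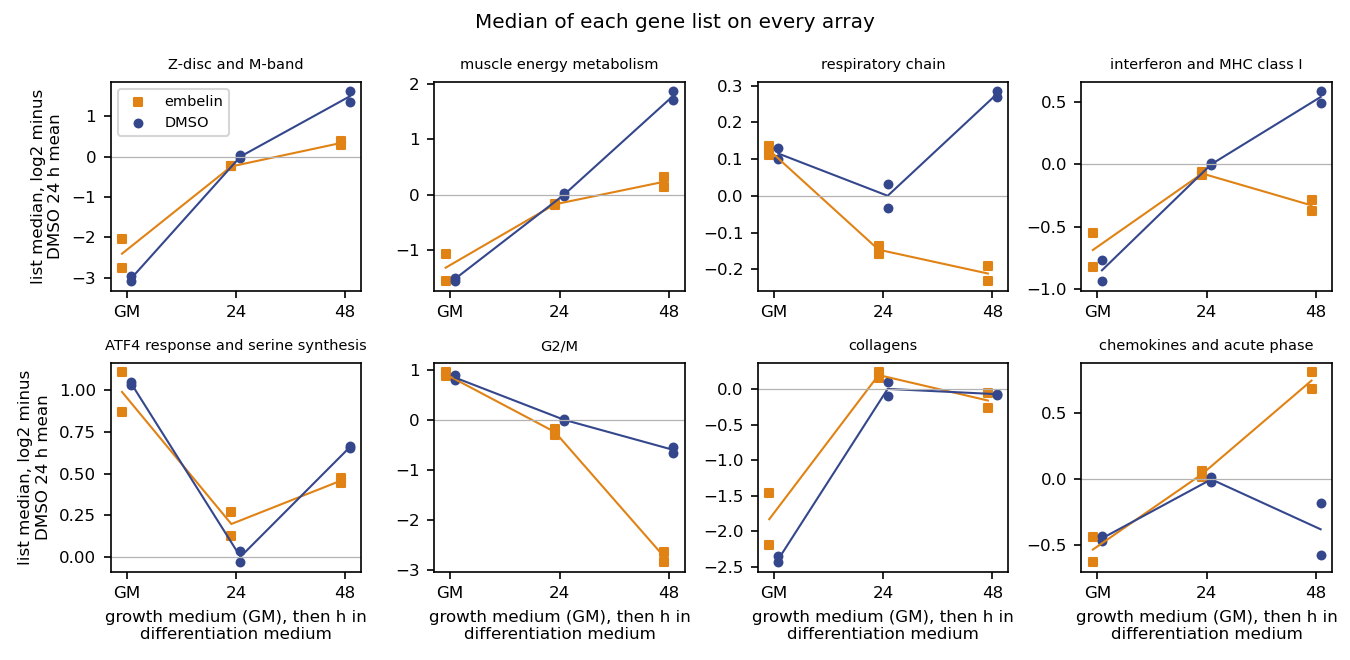
Median over the members of 8 gene lists on each of the 12 arrays, as log2 signal minus the DMSO 24 h mean, in growth medium (GM) and after 24 h and 48 h in differentiation medium, with orange squares for embelin and blue circles for DMSO and lines through the group means. From 24 h to 48 h in DMSO cells the medians of Z-disc (1.53), muscle energy (1.76), respiratory chain (0.28), interferon (0.52) and ATF4 genes (0.69) rise and those of G2/M (-0.59) and chemokine genes (-0.37) fall.

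The same second-day step was measured in embelin cells, which share no array with the DMSO step. Of the 3749 genes called in DMSO cells, 2952 had the same sign in embelin cells (78.7%), 1511 were also called there in the same direction and 180 in the opposite one. The embelin step was itself called in 28.7% of all genes tested, 13.8% higher and 15% lower. No share of same signs over all genes was counted. Over all 11452 genes the 2 steps correlated with r = 0.46, a description across genes, which are not independent replicates. The steps differed between embelin and DMSO cells in 1639 genes (14.3%), 757 with a higher step in embelin (6.61%) and 882 with a lower one (7.7%). Leaving out the embelin array that stood apart gave 2080 genes, equal medians gave 1088, and leaving out single arrays gave 880 (replicate 2 of embelin 48 h), 937 (replicate 2 of DMSO 48 h) and 1031 (replicate 2 of embelin 24 h).

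Muscle energy genes had a lower step in embelin in 12 of 19 cases, or 7 without replicate 2 of embelin 48 h, with medians of 0.32 in embelin and 1.76 in DMSO. Ckmt2, Ampd1, Casq1 and the factor Myf6 were not above background on any embelin array at 24 h or 48 h, nor at 24 h in DMSO, so they have no fold in embelin and only the bounds given above in DMSO. The fit called a lower step in embelin for all 4 (limma adjusted p of the difference from 0.000117 to 0.000433). Among the groups in this test only DMSO 48 h had them above background, and Ckmt2 passed the detection filter through that group alone. These calls are therefore no independent support. Of 22 Z-disc and M-band genes 6 had a lower step in embelin, and 11 without the embelin array that stood apart. That count was 1 without replicate 2 of embelin 48 h, 2 without replicate 2 of DMSO 48 h and 3 without replicate 2 of embelin 24 h. Actn2 changed by 1.83 in embelin and by 3.55 in DMSO (limma adjusted p of the difference 0.106), Myh8 by 2.36 and 3.48 (0.212) and the troponin Tnnt3 by 0.16 and 1.46 (0.155). Without the embelin array that stood apart all 3 differences passed (0.000876 for Actn2, 0.00533 for Myh8 and 0.0085 for Tnnt3), as did 4 of 6 troponins, against 0 with it. Interferon genes had a lower step in embelin in 14 of 26, or 9 without replicate 2 of either 48 h group, with medians of -0.22 in embelin and 0.52 in DMSO. Usp18 was not above background on any embelin array at either time, against at least 4.62-fold higher at 48 h in DMSO (limma adjusted p of the fitted difference 3.13e-05), and Ifit3 changed by -0.52 in embelin and 1.94 in DMSO (0.000102). Usp18 entered the test through the DMSO 48 h group alone, so its p-value is no independent support. Respiratory chain medians were -0.08 in embelin and 0.28 in DMSO, and the 6 of 34 genes with a lower step in embelin were 1 under equal medians and 0 to 4 with any 1 of the 8 arrays left out.

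Steps also differed between embelin and DMSO in chemokine, cell cycle and sterol genes. Of 24 chemokine and acute phase genes, 14 had a higher step in embelin, with medians of 0.68 in embelin and -0.37 in DMSO: Cxcl1 changed by 0.79 in embelin and by -2.15 in DMSO (0.00486), and Cp by 1.33 and -2.15 (0.00182). G2/M genes had a lower step in embelin in 26 of 34, with medians of -2.49 in embelin (-2.32 with undetected genes at their bound) and -0.59 in DMSO: Birc5 changed by -3.71 in embelin and by -1.01 in DMSO (0.000572), and Kif11 was at least 3.45-fold lower at 48 h in embelin and changed by -0.92 in DMSO (0.000535). DNA replication genes had a lower step in embelin in 18 of 46, or 9 to 11 without replicate 2 of DMSO 48 h, embelin 24 h or embelin 48 h. The embelin step itself was called lower in 31 of 34 G2/M genes, beside 15% of all genes. Sterol and fatty acid genes had a lower step in embelin in 15 of 29, with medians of -0.64 in embelin (-0.61 at bounds) and -0.00 in DMSO, a count of 9 without replicate 2 of embelin 48 h, embelin 24 h or DMSO 24 h. Myog (0.26 in embelin, 0.19 in DMSO), Myod1 (-0.61, -0.03), Cdkn1a (1.10, 0.89), Myh3 (0.50, 0.82), Mymk (0.88, 0.69), Igf2 (0.76, 1.07) and Kat2b (-0.16, -0.32) gave no called difference between the steps, whereas Mef2c (0.90, 1.93; limma adjusted p 0.0444) and Myh1 (-0.49, 1.03; 0.0381) did. Those 2 calls were lost with most of the 8 arrays left out singly, at up to 0.156 for Mef2c and 0.143 for Myh1. Smaller counts of higher steps in embelin were found among growth factors (7 of 27, or 4 without replicate 2 of DMSO 48 h, embelin 24 h or embelin 48 h), NRF2 genes (6 of 30, or 3 without replicate 2 of DMSO 24 h, DMSO 48 h or embelin 48 h) and glycolysis (4 of 15, or 7 without the embelin array that stood apart), and 4 of 7 myosin light chain and binding protein genes had a lower one. Ckm changed by -0.14 in embelin and 1.84 in DMSO (0.121), and Cdkn1c by -1.46 and 1.10 (0.24). Without the embelin array that stood apart the differences of Ckm (0.000706), Cdkn1c (0.00289) and Myod1 (0.0434) passed.

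**Figure D4:**
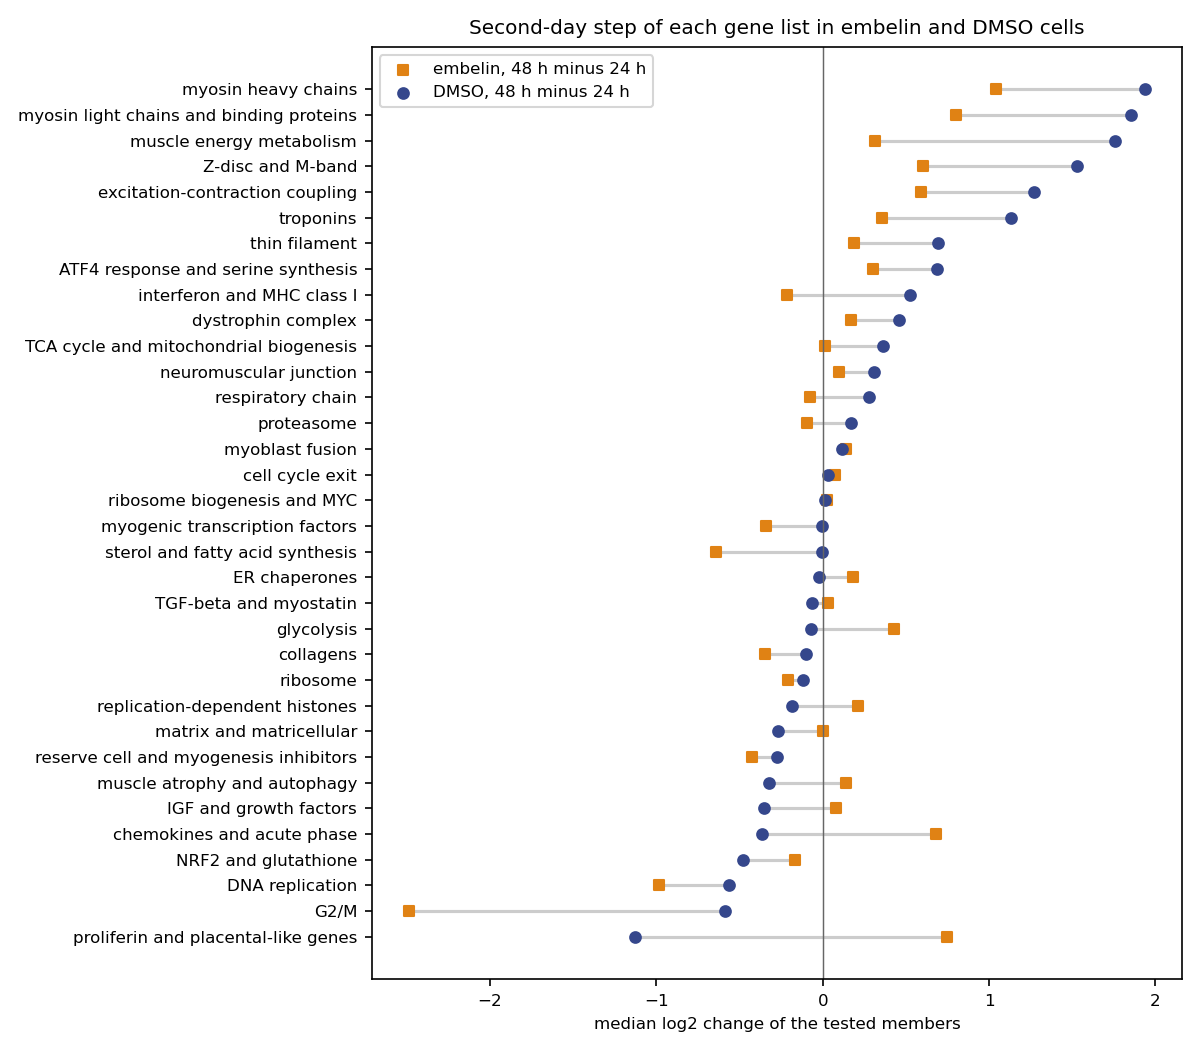
Median log2 change from 24 h to 48 h of the tested members of each gene list in embelin cells (orange squares) and DMSO cells (blue circles), joined by a grey line for each list. Muscle energy (0.32 and 1.76), interferon (-0.22 and 0.52), chemokine (0.68 and -0.37) and G2/M genes (-2.49 and -0.59) lie far apart, and myoblast fusion, cell cycle exit and ribosome biogenesis lists lie close together.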

How the data were processed

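RNA of C2C12 cells was hybridized to 12 Illumina bead arrays of the MouseWG-6 v2.0 R3 design. The authors deposited one table of bead signals, in which the intensity columns are summarised by GenomeStudio without normalization, per the file headers (version 1.8.0; the submitters' processing notes name 2010.2), and a detection score per probe, from which the detection p-value was taken as 1 minus the deposited score. The authors' series matrix holds deposited log2 values, used as an alternative. Per the labels, RNA was extracted with Trizol and labelled with Cy3. The slide of each array is not given in the sources used here. Signals on a linear scale ran from 31.3 to 49278.2, with a median of 42 to 43 beads per probe, and 15031 to 16314 probes were detected per array. The number of arrays, 2 per group, limits the precision.

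Intensities were background-corrected, quantile-normalized with an offset of 16 and put on the log2 scale with neqc (limma 3.58.1, R 4.3.3). Probes detected at a p-value under 0.01 on both arrays of a group were kept (16981), and each gene was read by its brightest probe. Probe names were matched to current RefSeq symbols, with 27760 current, 7992 through a synonym and 9529 left as in the file. The fit had 6 group means on 12 arrays, 6 residual degrees of freedom and a prior of 4.51, and Benjamini-Hochberg adjustment over all 11452 genes. On simulated data for the 48 h against 24 h comparison (11414 genes), 14 of 67 changes of 0.5, 47 of 67 of 1 and 58 of 66 of 2 log2 units were recovered, with 10 false calls of 129. Far fewer genes changed in the simulation than were called in the data, so its recovery need not hold there. Named are the 12 largest called changes each way with no overlap of arrays, the 5 largest each way for each difference between steps, 15 set genes and up to 4 members of a list in each direction, and beside them members of isoform families and others set against these. Cd81 was named after its values were seen, to complete a small count. Alternatives were other scalings, the series matrix, filters, the 4 DMSO arrays alone, a trended prior, a replicate block, the mean of probes and each array left out, and, chosen after seeing the data, the embelin growth medium replicate 2 left out. The members and the gene lists were chosen with earlier results of these data known. Promoters are RefSeq windows. Some list members are not reported here.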

Additional observations from a re-analysis of the deposited data

Results flagged for a closer look

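The second-day step differed between embelin and DMSO cells in 1639 genes by the limma test of the difference itself, and the 10 named ones follow. The step was higher in embelin by a log2 difference of 3.56 for Angptl4 (limma adjusted p = 0.0372), 3.48 for Cp (0.00182), 3.43 for Prl2c3 (0.00766), 3.23 for Ptx3 (0.000451) and 3.20 for Rasl11a (0.000744). Angptl4, a secreted inhibitor of lipoprotein lipase, had 12.08 and 12.36 in embelin and 9.84 and 6.67 in DMSO at 48 h, and its difference lost its call with any array of the 8 left out except the 2 of DMSO 48 h (up to 0.114). Prl2c3 belongs to a family of near-identical proliferin genes, whose probes may read one another, and it was detected on 1 of 2 DMSO arrays at each of 24 h and 48 h.

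The step was lower in embelin by -3.46 for Parm1 (0.0309), -3.39 for Col8a2 (0.0021), -2.98 for Ckmt2 (0.000117), -2.95 for the mitotic kinase Pbk (0.000119) and -2.92 for Usp18 (3.13e-05). Ckmt2 and Usp18 were above background at 48 h in DMSO but on no embelin array at 24 h or 48 h and on no DMSO array at 24 h, so the sizes of these 2 fitted differences rest partly on background. Both passed the detection filter only through the DMSO 48 h arrays, so their p-values and places among the largest differences are no independent support. Parm1 had 7.50 and 6.80 in embelin at 48 h against 11.06 and 11.25 in DMSO, and its call was lost with any array left out except replicate 1 of embelin 48 h (up to 0.114). It passed without the embelin growth medium array that stood apart (0.000131). Col8a2, a short-chain collagen, had 5.48 and 4.75 in embelin at 48 h, detected on 1 array, against 8.20 and 8.51 in DMSO. What lies behind these differences was not tested.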

How the results depend on the processing

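The count of 3749 genes between 48 h and 24 h ran from 2408 to 2737 with 1 of the 4 arrays left out, and from 2851 to 4145 under the other settings: 2851 at equal medians, 3361 at equal 75th percentiles, 3377 from the series matrix, 3142 from the 4 DMSO arrays alone, 3946 with a trended prior and 4145 without replicate 2 of embelin in growth medium. The count of 4599 for the second-day against the first-day step ran from 2750 to 4195 with 1 array left out, lowest without replicate 1 of 24 h, and from 3904 to 4897 otherwise. The count of 1639 for embelin against DMSO ran from 880 to 1592 with 1 array left out and was 1088 at equal medians and 1304 to 2080 otherwise. Of 130 named calls between 48 h and 24 h, 109 passed with the same direction under all 14 alternatives, and 20 of the others were lost with an array left out. Opposite directions were found for Tpm3 with the mean of all its probes (1.14), and without replicate 2 of 48 h for Angptl4 (1.16) and Saa3 (0.60), which were at -0.42 and -1.60 and did not pass with all arrays, and were at -2.01 and -3.80 without replicate 1 of 48 h. Deviations of same-numbered arrays correlated at -0.03 to 0.24 over 15 pairs of groups, over 0.1 in 7 of them, which include all 6 pairs among the groups in differentiation medium (0.13 between 48 h and 24 h). The labels name nothing that same-numbered arrays share, so the main fit did not pair them. Whatever such arrays share in differentiation medium therefore stays in the spread of the main fit. The replicate block gave 3843, 4725 and 1683 genes for the 3 comparisons. Except for Tpm3, where its probes disagree, the cause was not tested. Some called genes also had dimmer probes that did not pass, among them Ncam1 (-0.09), Dtna (0.07 and 0.08), Timp3 (0.34), Atp2a3 (0.51) and Tcf3 (-0.27). Their values hold for the brightest probe. With 2 arrays per group, a gene that did not pass may still have changed. In the simulation, changes of 0.5 on the log2 scale were recovered in 14 of 67 cases, but it held 129 calls in all, against 3749 here. With fewer changed genes an adjusted p under 0.05 is harder to reach, so recovery in the data may differ.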

Other observations

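The 2 DMSO arrays at 48 h lay apart in a set of genes that were high in embelin cells at the same time. Angptl4 had 9.84 on replicate 1 and 6.67 on replicate 2, beside 12.08 and 12.36 in embelin. Car9, a carbonic anhydrase, had 8.33 and 6.80, beside 10.70 and 10.61 in embelin, and Hilpda, a lipid droplet protein, had 10.77 and 9.26, beside 12.15 and 12.35. The chemokine Cxcl12 had 8.52 and 6.74, beside 10.96 and 10.78, and Saa3 had 10.48 and 6.07, beside 12.50 and 12.56. These genes were picked by their replicate gaps after their values were seen, and nothing in the labels separates the 2 arrays.

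At 24 h the DMSO replicates parted in genes that were high in growth medium. Prl2c2, a proliferin, had 4.68 and 8.09 on the 24 h arrays, beside 11.75 and 11.96 in growth medium, and Gsta2 had 4.36 and 6.71, beside 10.74 and 10.59. By 48 h Prl2c2 had 5.45 and 4.84 and Gsta2 had 4.33 and 4.48, so both 48 h arrays lay below replicate 2 of 24 h. Against replicate 1 of 24 h, both 48 h values of Prl2c2 lay above it and those of Gsta2 on either side. Neither gene passed between 48 h and 24 h (limma adjusted p = 0.288 for Prl2c2 and 0.142 for Gsta2). Crebbp, an acetyltransferase gene, had 5.86 and 6.99 in growth medium, 5.38 and 7.03 at 24 h and 5.46 and 7.31 at 48 h in DMSO cells, with replicate 2 above replicate 1 at all 3 points. These genes too were picked after their values were seen.

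Of the 11452 genes tested, 323 were detected on both 48 h arrays but neither 24 h array. Of these, 216 were also on no growth medium array of DMSO cells. The reverse held for 111 genes, of which 49 were also undetected in growth medium. More probes were detected per array at 48 h (16314 and 15534) than at 24 h (15510 and 15065), and the filter kept genes detected in 1 group alone. The 2 counts are therefore not read against each other.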
